A study of Mus musculus with 6 samples.

Results

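Hnf4a, Hnf4g, Gata4, Gata6, Foxa1, Foxa2, Foxa3 and Cdx2, which encode transcription factors of the endoderm, were taken by name from the series' count table. They were 8 of the 21959 genes in the table, and 7 of the 8 had enough counts to be tested among 11795 genes. Foxa proteins are pioneer factors that open closed chromatin in the early gut tube, and Gata4 and Gata6 are zinc finger factors that act beside them. Hnf4a and Hnf4g are nuclear receptors that drive epithelial genes of the liver, stomach and intestine. Cdx2 is a homeobox factor that specifies intestine and is best known in the stomach from intestinal metaplasia.

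The samples were bulk RNA-seq libraries of MPC, a mouse gastric adenocarcinoma cell line, and of MPC-PTX, a line derived from it by over 30 cycles of paclitaxel (PTX), a drug that stabilises microtubules. Both lines carried the genotype CDH1-/-;Trp53-/- and grew in RPMI 1640 medium with fetal bovine serum, and there were 3 libraries of each, all with batch label 1. The study's text names the lines MTC and MTC-R. It made them from mouse organoids with floxed Trp53 and Cdh1 alleles and the Mist1-CreER driver, given tamoxifen in culture and passed as a subcutaneous tumour through a BALB/c nude mouse. Each line was 1 selected clone, so the difference between drug-resistant and parental cells and the difference between 2 clones cannot be told apart. The labels do not say whether the libraries of a line came from separate cultures, so the p-values measure only the spread between these libraries, which may be technical.

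The libraries held 16574580 to 23148182 counts, with 13897 to 14295 genes detected in each. Cdh1 had 2217 to 3068 counts and Trp53 had 63 to 142 counts per library, and a count over a whole gene cannot show the excised exons. The median coefficient of variation of a gene was 12.2% among the MPC libraries and 4.33% among the MPC-PTX libraries. Of the gastric markers, Tff1, Tff2, Gkn2, Pgc and Gast were at 0 in all 6 libraries, although 12 of 12 general epithelial markers were high enough to be tested. The summed level of the general epithelial markers was 10165 to 11786 CPM in MPC and 6246 to 6456 CPM in MPC-PTX. CPM, the usual depth-scaled unit of counts, was computed with library sizes scaled by the trimmed mean of M values (TMM).

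Sequences at the annotated starts are shown because 4 of the 8 genes fell together, and Foxa1 is shown as a member that did not pass the test. RefSeq's GRCm38.p6 table held starts of Hnf4a, Foxa1, Foxa2, Foxa3 and Cdx2, and none was listed for Hnf4g, Gata4 and Gata6. Each run holds 250 bases before the start and 50 bases from it on, 5′ to 3′ on the gene's strand, and capitals mark a motif match on either strand. Gene counts do not tell which of the Hnf4a starts was used.
Hnf4a start 1, chr2:163506607-163506906, plus strand: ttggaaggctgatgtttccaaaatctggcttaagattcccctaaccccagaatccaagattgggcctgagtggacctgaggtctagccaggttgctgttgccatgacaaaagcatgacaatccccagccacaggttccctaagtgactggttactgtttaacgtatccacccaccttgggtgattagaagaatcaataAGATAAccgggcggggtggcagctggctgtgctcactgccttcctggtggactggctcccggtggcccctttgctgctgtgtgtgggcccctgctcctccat
Hnf4a start 2, chr2:163546905-163547204, plus strand: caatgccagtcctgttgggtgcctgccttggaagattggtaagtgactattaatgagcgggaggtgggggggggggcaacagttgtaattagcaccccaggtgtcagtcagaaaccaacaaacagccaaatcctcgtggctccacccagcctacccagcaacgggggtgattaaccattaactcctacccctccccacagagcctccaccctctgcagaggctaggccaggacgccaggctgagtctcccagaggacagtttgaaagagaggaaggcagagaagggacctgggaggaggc
Foxa3, chr7:19023490-19023789, minus strand: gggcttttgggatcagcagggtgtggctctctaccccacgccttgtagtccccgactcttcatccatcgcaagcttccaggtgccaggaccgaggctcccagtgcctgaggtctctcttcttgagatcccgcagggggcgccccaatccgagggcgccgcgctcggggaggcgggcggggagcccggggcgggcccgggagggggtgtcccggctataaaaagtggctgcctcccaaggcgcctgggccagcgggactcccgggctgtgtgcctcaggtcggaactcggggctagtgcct
Cdx2, chr5:147307200-147307499, minus strand: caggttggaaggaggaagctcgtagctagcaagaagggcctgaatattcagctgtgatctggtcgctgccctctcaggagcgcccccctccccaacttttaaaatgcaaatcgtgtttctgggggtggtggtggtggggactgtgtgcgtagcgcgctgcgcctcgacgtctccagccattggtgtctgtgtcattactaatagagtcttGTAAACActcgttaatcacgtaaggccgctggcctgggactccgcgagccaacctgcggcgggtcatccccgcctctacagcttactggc
Foxa1, chr12:57546062-57546361, minus strand: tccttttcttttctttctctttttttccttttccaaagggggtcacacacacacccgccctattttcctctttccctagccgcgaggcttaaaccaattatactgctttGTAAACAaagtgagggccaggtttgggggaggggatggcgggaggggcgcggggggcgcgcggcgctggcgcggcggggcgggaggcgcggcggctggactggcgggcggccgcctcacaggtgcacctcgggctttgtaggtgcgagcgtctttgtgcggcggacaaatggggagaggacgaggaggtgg

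Of the motifs searched on both strands, those reported here are AGATAA for GATA factors, TGTTTAC for FOX factors, CAAAGTCC for HNF4 and TTTATGG for CDX. The upstream Hnf4a start held AGATAA at -52 to -47, counted from the start base as 0, and 11.2% of 32851 promoters of 300 bases held that motif. Of the 3 Foxa2 starts, whose sequences are not printed, start 3 also held AGATAA, at -183 to -178. Cdx2 at -40 to -34 and Foxa1 at -141 to -135 held TGTTTAC on the other strand, a motif found in 3.65% of promoters. The downstream Hnf4a start and Foxa3 held none of these 4 motifs, of which CAAAGTCC was in 1.42% and TTTATGG in 2.75% of promoters. These matches describe the letters in each window and are not measured binding sites.

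The lines were compared for the HNF4 receptors, the GATA pair, the FOXA pioneers and Cdx2. Hnf4a, Gata6, Foxa3 and Cdx2 fell in MPC-PTX, and Foxa1, Gata4 and Hnf4g did not pass the test, by the quasi-likelihood test of edgeR, adjusted by Benjamini-Hochberg over all tested genes. So 4 of the 7 tested members were called lower, where 15.6% of all tested genes were, and 0 were called higher, where 14.1% of all tested genes were. The members were chosen with earlier results of these data known, so these counts are a description. The count of higher members was also 0 at an unadjusted p under 0.05 and 0 with DESeq2. The study's own rule asked for more than 1 log2 unit of change and an unadjusted p under 0.05, there with DESeq. With these cutoffs applied to edgeR's values here, the same 4 genes were lower, against 4.34% of tested genes. All 3 MPC-PTX libraries lay below all 3 MPC libraries for 5 members, Foxa1 being the other one, against 22.7% of tested genes.

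**Figure D1:**
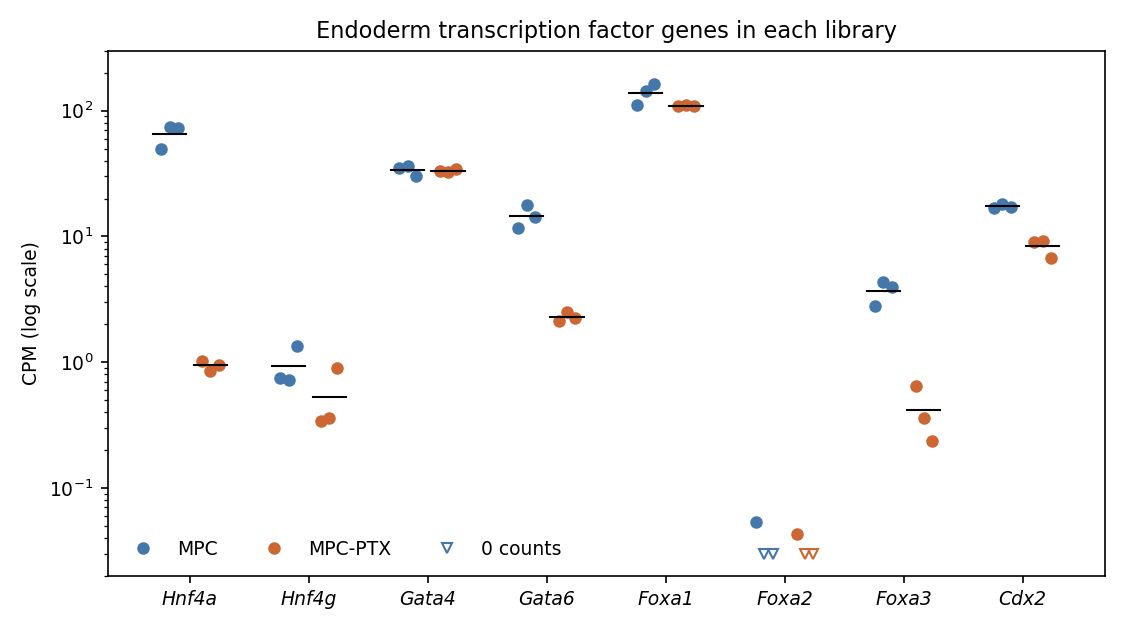
Level of each member in each library, in CPM on a log axis, with 1 point per library, bars at the group means and open triangles for the Foxa2 libraries with 0 counts. Hnf4a shows the widest gap, from 49.2 to 74.3 CPM in MPC to 0.856 to 1.03 CPM in MPC-PTX, and the Gata4 points of the lines overlap.

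Hnf4a (ENSMUSG00000017950, GRCm38 chromosome 2, 163506808 to 163572910, plus strand) encodes the receptor that maintains differentiated liver and gut epithelium. It had 927, 1442 and 1524 counts in the MPC libraries, which are 49.2, 74.3 and 73.2 CPM. The MPC-PTX libraries had 24, 19 and 16 counts, which are 1.03, 0.856 and 0.950 CPM. The groups were far apart, with MPC replicate 1 the lowest of its line. The mean was 65.6 ± 14.2 CPM (SD, n = 3) in MPC and 0.944 ± 0.0844 CPM (SD, n = 3) in MPC-PTX, so 1.45% of the parental level was left. The log2 fold change was -6.11 (SE 0.23, 95% interval -6.64 to -5.58, adjusted p = 9.23e-06 by edgeR), a level 69.0-fold lower (95% interval 47.8 to 99.6). It ranked 29 from the lowest log2 fold change of 11795 genes. In these bulk libraries, fewer cells with the transcript and less transcript per cell cannot be told apart. The gene Hnf4aos is annotated antisense to Hnf4a and is not in the count table, and strand use in the counting is not given in the sources used here, so reads of the pair cannot be told apart.

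Hnf4g (ENSMUSG00000017688, chromosome 3, 3508030 to 3658052, plus strand), the related receptor enriched in intestine, was low. It had 14, 14 and 28 counts in MPC and 8, 8 and 15 counts in MPC-PTX, and the lines overlapped. Its levels were 0.937 ± 0.354 CPM (SD, n = 3) in MPC and 0.531 ± 0.312 CPM (SD, n = 3) in MPC-PTX. The log2 fold change was -0.89 (95% interval -1.99 to 0.21, adjusted p = 0.198 by edgeR), an interval that holds both no change and a fall of several fold.

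Gata6 (ENSMUSG00000005836, chromosome 18, 11052064 to 11085635, plus strand), a regulator of gastric and intestinal epithelium, had 219, 344 and 295 counts in MPC and 50, 56 and 38 counts in MPC-PTX. Those are 11.6, 17.7 and 14.2 CPM against 2.14, 2.52 and 2.26 CPM, with no overlap. Gata6 fell 6.28-fold (95% interval 4.61 to 8.56), a log2 fold change of -2.65 (SE 0.19, adjusted p = 0.00012 by edgeR). The transcript 1010001N08Rik runs antisense to Gata6 and is likewise not in the count table.

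Gata4 (ENSMUSG00000021944, chromosome 14, 63198922 to 63271692, minus strand), the partner factor of gut endoderm and the proximal intestine, had 660, 709 and 630 counts in MPC and 782, 728 and 575 counts in MPC-PTX. Its levels of 35.1, 36.5 and 30.3 CPM in MPC and 33.4, 32.8 and 34.1 CPM in MPC-PTX overlapped. The log2 fold change was -0.021 (SE 0.093, 95% interval -0.24 to 0.20, adjusted p = 0.881 by edgeR). Gata4 made up 67.6% ± 4.48 (SD, n = 3) of the summed Gata4 and Gata6 level in MPC and 92.8% ± 0.672 (SD, n = 3) in MPC-PTX, both levels taken per kilobase of exon. The library ranges of that share, 64.7 to 72.8% and 92.0 to 93.3%, did not overlap, and no test was run on it.

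Foxa1 (ENSMUSG00000035451, chromosome 12, 57540628 to 57546916, minus strand), a pioneer factor, was the most abundant member in both lines. Its levels were 111.7, 142.9 and 161.8 CPM in MPC and 108.2, 110.6 and 109.3 CPM in MPC-PTX, from 2103, 2773 and 3368 against 2535, 2455 and 1841 counts. All MPC-PTX libraries were below all MPC libraries, but the lowest MPC library was only just above them. The log2 fold change was -0.34 (SE 0.13, 95% interval -0.64 to -0.05), with an unadjusted p of 0.0295 and an adjusted p of 0.083 by edgeR. The call depended on the setting: adjusted p was 0.00253 without MPC replicate 1, 0.0438 without MPC replicate 3 and 0.0366 with DESeq2.

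Foxa3 (ENSMUSG00000040891, chromosome 7, 19013284 to 19023538, minus strand), the family member best known from liver and gut, had 53, 84 and 82 counts in MPC and 15, 8 and 4 counts in MPC-PTX. Those are 2.82, 4.33 and 3.94 CPM against 0.640, 0.361 and 0.238 CPM, and the lines did not overlap. Foxa3 fell 8.53-fold (95% interval 4.90 to 14.8), a log2 fold change of -3.09 (SE 0.34, adjusted p = 0.000758 by edgeR). Foxa2 (ENSMUSG00000037025, chromosome 2, 148042877 to 148046969, minus strand), the factor of the notochord and definitive endoderm, had 1 count in MPC replicate 1, 1 count in MPC-PTX replicate 1 and 0 in the other 4 libraries. A count of 0 allows up to 3 counts, for counting error only, so Foxa2 was not tested and no fold is given. Foxa1 therefore held 96.0% ± 0.450 (SD, n = 3) of the summed FOXA level per kilobase in MPC and 99.4% ± 0.329 (SD, n = 3) in MPC-PTX. Foxa3 held 4.00% ± 0.463 and 0.588% ± 0.298 of it (SD, n = 3 each).

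Cdx2 (ENSMUSG00000029646, chromosome 5, 147300805 to 147307270, minus strand) had 315, 354 and 360 counts in MPC and 213, 204 and 113 counts in MPC-PTX. Those are 16.7, 18.2 and 17.3 CPM against 9.09, 9.19 and 6.71 CPM, so the intestinal factor was present in every library and lower in each MPC-PTX library. The level fell 2.08-fold (95% interval 1.66 to 2.60), a log2 fold change of -1.06 (SE 0.14, adjusted p = 0.00155 by edgeR). This was the smallest change among the 4 members that passed the test. Cdx1 had 2 counts in 1 library of each line and 0 in the others, and Cdx4 had 0 in all 6.

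**Figure D2:**
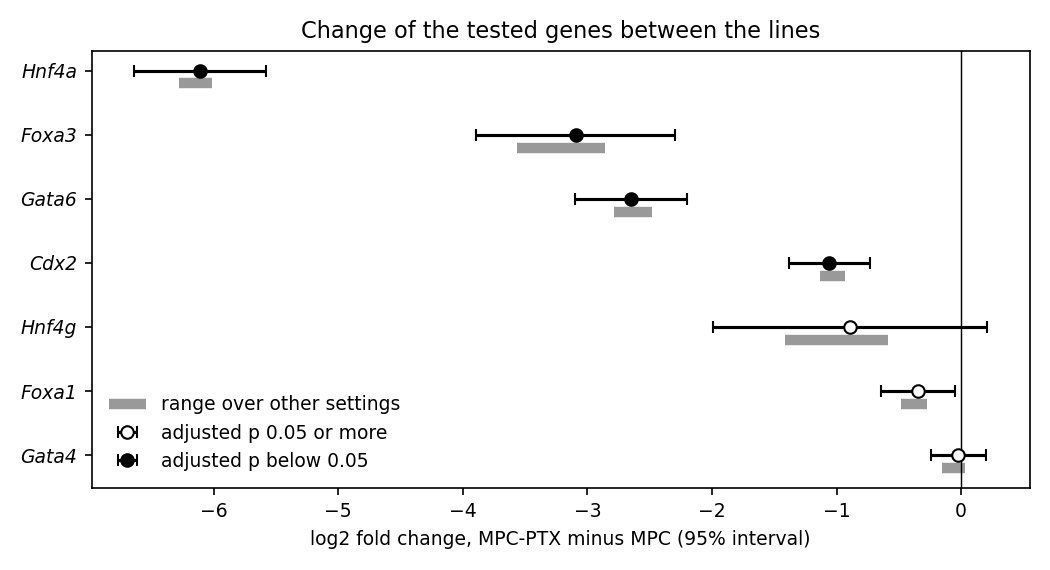
Log2 fold change of MPC-PTX against MPC for each tested member, points with 95% intervals from edgeR, with filled points for an adjusted p below 0.05 and grey bars for the range over the alternative settings. Hnf4a lies at -6.11, Foxa3 at -3.09, Gata6 at -2.65 and Cdx2 at -1.06, and the intervals of Gata4 and Hnf4g cross 0.

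Ranked by level per kilobase of exon (RPKM, CPM divided by the length of the merged exons in GENCODE M21), the order in MPC was Foxa1, Hnf4a, Gata4, Cdx2, Gata6, Foxa3, Hnf4g and Foxa2. The means were 43.5 ± 7.92, 15.0 ± 3.25, 9.32 ± 0.901, 7.71 ± 0.338, 4.49 ± 0.947, 1.81 ± 0.386 and 0.356 ± 0.134 RPKM for the leading 7 (SD, n = 3). No neighbours in that order overlapped between libraries. In MPC-PTX, Foxa1 at 34.3 ± 0.376, Gata4 at 9.18 ± 0.184, Cdx2 at 3.69 ± 0.622 and Gata6 at 0.713 ± 0.0615 RPKM led. Hnf4a at 0.216 ± 0.0194, Foxa3 at 0.203 ± 0.101 and Hnf4g at 0.202 ± 0.119 RPKM overlapped one another there. Hnf4a thus went from the member next to Foxa1 in level to a level not separable from Hnf4g, and its share of the HNF4 pair went from 97.7% ± 0.693 to 54.1% ± 13.3 (SD, n = 3). The summed HNF4 level was 15.4 ± 3.31 RPKM in MPC and 0.418 ± 0.121 RPKM in MPC-PTX.

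**Figure D3:**
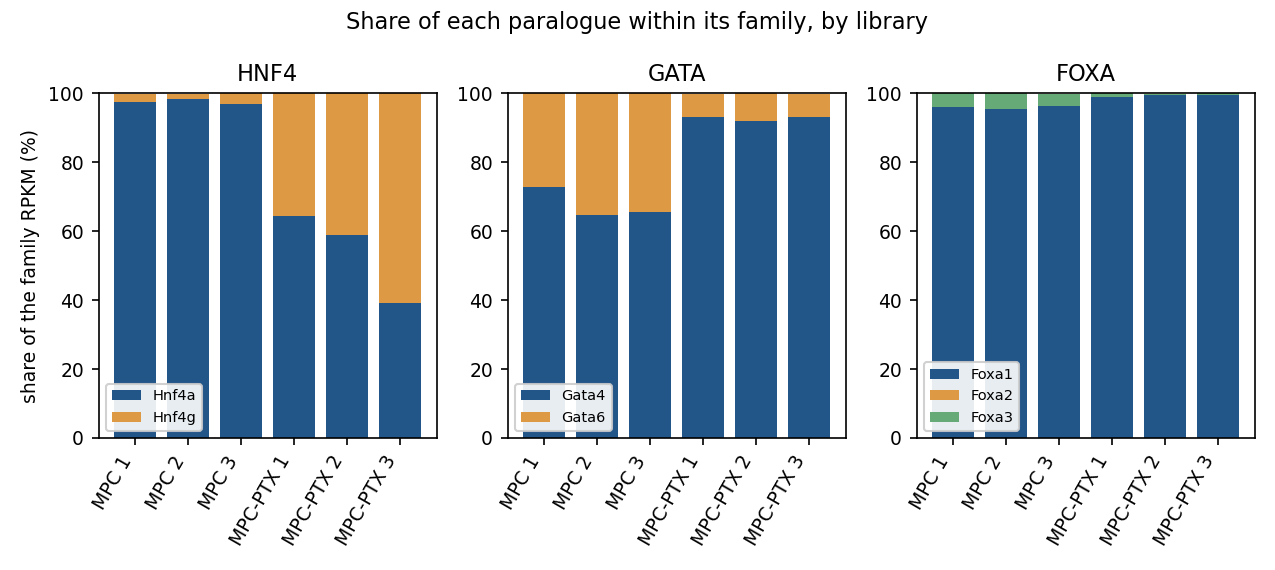
Share of each family's summed RPKM held by each member, in percent, per library. Gata4 is at 64.7 to 72.8% of the GATA pair in MPC and 92.0 to 93.3% in MPC-PTX, and Hnf4a is at 97.0 to 98.4% of the HNF4 pair in MPC and between 39.1 and 64.4% in MPC-PTX.

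MPC replicate 1 was the lowest MPC library in 5 of the 7 tested members, Hnf4a, Gata6, Foxa3, Foxa1 and Cdx2, and in 36.96% of all tested genes. The part of this library in the results was measured by leaving it out: the same 4 members stayed lower, and Foxa1 was added.

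A set of 13 related genes was taken by family or partnership: Onecut and other homeobox factors, the other GATA genes, FOG cofactors of GATA proteins and the other CDX genes. Of these, 6 were tested, and 3 were lower, 1 was higher and 2 did not pass, with a median log2 fold change of -0.45. The shares over all tested genes were 15.6% lower and 14.1% higher. Onecut3 had 39, 46 and 52 counts in MPC and 7, 2 and 0 counts in MPC-PTX, a log2 fold change of -3.96 (SE 0.52, adjusted p = 0.00162 by edgeR). Onecut2 had 210, 461 and 1217 counts in MPC, a very wide spread, and 93, 141 and 87 counts in MPC-PTX, a log2 fold change of -2.59 (SE 0.60, adjusted p = 0.0183 by edgeR). That call was lost without any 1 of the 3 MPC-PTX libraries, with an adjusted p of 0.0743, 0.0579 and 0.0693.

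Of the FOG cofactors, Zfpm2 rose from 22.3 ± 3.20 to 38.6 ± 1.52 CPM (SD, n = 3 in each line), 0.79 as a log2 fold change (SE 0.12, adjusted p = 0.00255 by edgeR). Zfpm1 was at 20.0 ± 2.34 and 15.6 ± 1.05 CPM, a log2 fold change of -0.36 (SE 0.11, adjusted p = 0.0529 by edgeR), and it passed under 5 of 14 alternatives. Its adjusted p was 0.049 with DESeq2, 0.0459 with DESeq2 size factors, 0.00755 with GC and length correction, 0.00772 with that correction and the replicate block, and 0.00509 without MPC replicate 3. Gata3 was at 0.957 ± 0.279 and 1.04 ± 0.179 CPM (adjusted p = 0.783 by edgeR). Gata2 had 3, 2 and 2 counts against 1, 0 and 0, a ratio of 7.40 with a counting interval of 0.951 to 334.

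Gene lists of gut tissues were set beside the members. They were chosen with earlier results of these data known, so their counts are a description. The filter also kept genes with enough counts in 1 line only, so a gene nearly absent from MPC-PTX could be tested. Of all 11795 tested genes, 1841 (15.6%) were lower and 1668 (14.1%) higher, with a median log2 fold change of 0.04. Those counts ran from 1077 lower without MPC-PTX replicate 2 to 3227 without MPC replicate 3, and from 803 higher without MPC-PTX replicate 1 to 3020 without MPC replicate 3. Beside these lists the general epithelial markers moved too, with 10 of 12 lower and a median of -0.64, and their part in the result was not tested. Among 28 other gut transcription factors, 18 were tested, 4 were lower and 4 higher, with a median of -0.03, although 8 were lower without MPC replicate 3 and 2 were higher without MPC-PTX replicate 1. Of the 4 lower, Elf3 fell from 176 ± 14.7 to 101 ± 5.56 CPM and Foxq1 from 129 ± 10.3 to 81.7 ± 2.47 CPM. Their log2 fold changes were -0.80 and -0.65 (adjusted p = 0.000543 and 0.001 by edgeR). Tcf7l2 and Hes1 were at -0.66 and -0.41, and Hes1 lost its call without any 1 MPC-PTX library. These 4 were named after their values were seen. Klf4, which marks differentiating gut epithelium, rose from 7.63 ± 0.860 to 24.9 ± 1.61 CPM, a log2 fold change of 1.70 (SE 0.12, adjusted p = 9.88e-05 by edgeR). Bhlha15, also called Mist1, the secretory factor whose promoter drove the Cre allele, went from 0.272 ± 0.0349 to 0.884 ± 0.112 CPM, a log2 fold change of 1.68 (SE 0.32, adjusted p = 0.00761 by edgeR), on 5, 6 and 5 counts against 18, 22 and 15.

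Gastric genes were mostly lower where they could be tested: of 29 listed, 12 were tested, 9 were lower and 1 was higher, with a median log2 fold change of -1.49. With 10 counts in every library, 7 were lower and 1 higher, as that filter left out genes nearly absent from MPC-PTX, such as Vsig1. Anxa10, an annexin of gastric surface cells, fell from 129 ± 34.2 to 0.321 ± 0.127 CPM, a log2 fold change of -8.62 (SE 0.35, adjusted p = 2.22e-05 by edgeR). Ctse, a gastric aspartic protease, fell from 275 ± 38.7 to 1.496 ± 0.350 CPM, a log2 fold change of -7.54 (SE 0.19, adjusted p = 8.07e-06 by edgeR). Vsig1, a junction protein of the stomach, had 56, 60 and 88 counts in MPC and 1, 0 and 0 in MPC-PTX, a ratio of 216 with a counting interval of 38.3 to 8562. Tspan8, at 76.8 against 14.5 CPM, and Psca, at 174 against 44.1 CPM, also fell, with log2 fold changes of -2.40 and -1.98. Cldn18, at 274 against 199 CPM, and Muc1, at 754 against 616 CPM, fell less, with log2 fold changes of -0.46 and -0.29. Muc1 lost its call without MPC replicate 2 or any 1 MPC-PTX library. Mal2, at -0.24, and Slc26a9, at 0.070, did not pass, although Mal2 passed under 8 of 14 alternatives. The 1 gene called higher was Aqp5, at 9.36 ± 3.86 against 20.0 ± 1.22 CPM (adjusted p = 0.0267 by edgeR). That call was lost without MPC replicate 2 or any 1 MPC-PTX library. Untested Hdc had 1, 0 and 0 counts in MPC and 4, 3 and 11 in MPC-PTX. The genes from Cldn18 to Hdc were named after their values were seen.

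Of 30 intestinal genes, 10 were tested and 5 were lower, with a median log2 fold change of -1.18, beside the fall of Cdx2. Vil1, the villin of the brush border, fell from 44.5 ± 9.01 to 0.380 ± 0.0799 CPM, a log2 fold change of -6.84 (SE 0.24, adjusted p = 8.81e-06 by edgeR). Gpa33, a cell surface antigen of intestinal epithelium, fell from 79.1 ± 8.14 to 5.68 ± 0.326 CPM, a log2 fold change of -3.80 (SE 0.11). Lgals4 at -2.61 and Cdh17 at -2.44 on the log2 scale followed. Cdhr2 had a log2 fold change of -1.87 (adjusted p = 0.0451 by edgeR) and lost that call without MPC replicate 2, MPC-PTX replicate 1 or MPC-PTX replicate 2.

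Of 33 genes of liver and plasma proteins, 6 were tested, 4 were lower and 1 was higher, with a median log2 fold change of -0.99. Apob, the apolipoprotein of secreted lipid particles, had 756, 1281 and 2556 counts in MPC and 24, 28 and 26 in MPC-PTX, a log2 fold change of -5.92 (SE 0.51, adjusted p = 0.000369 by edgeR). Proc, the anticoagulant protein C, fell from 4.33 to 0.158 CPM, a log2 fold change of -4.84. Mttp, which loads lipid onto Apob, fell from 27.0 to 13.1 CPM, a log2 fold change of -1.04. Rbp4, the retinol carrier, was the higher one, at 40.5 ± 5.28 against 131 ± 0.433 CPM and a log2 fold change of 1.69 (SE 0.099). Afp had a log2 fold change of -0.94 (adjusted p = 0.0157 by edgeR) and lost that call without MPC replicate 2, MPC-PTX replicate 1 or MPC-PTX replicate 2.

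**Figure D4:**
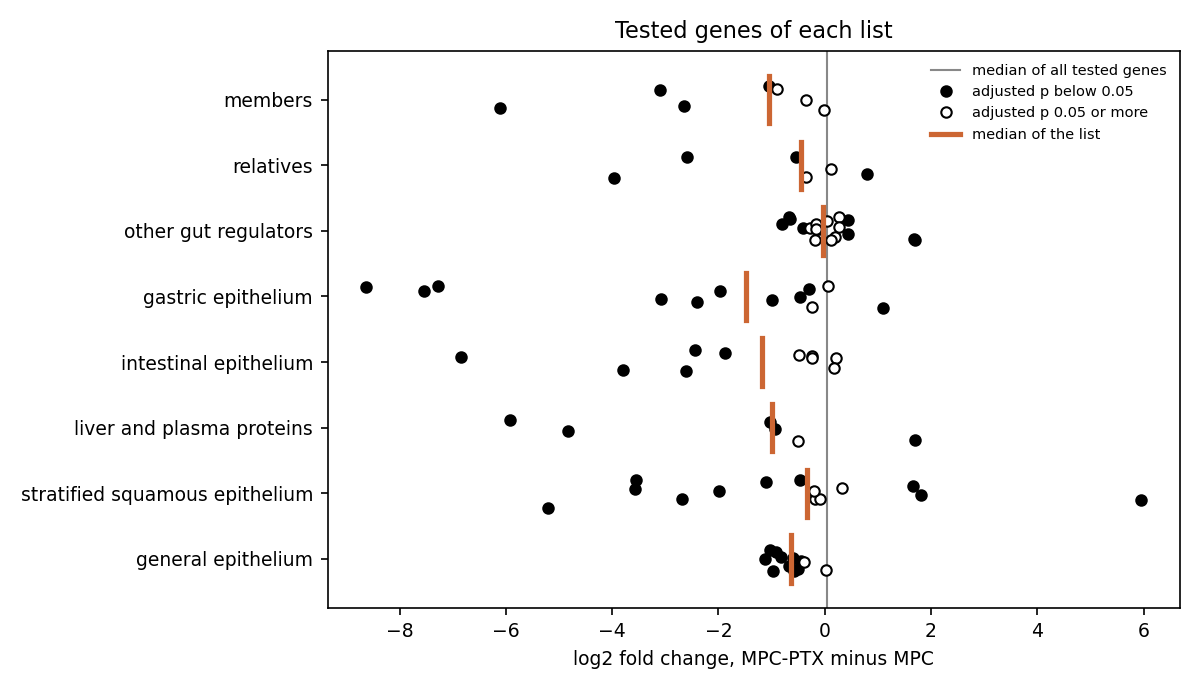
Log2 fold change of MPC-PTX against MPC for each tested gene of the members, the relatives and the tissue lists, with filled points for an adjusted p below 0.05, an orange bar at each list's median and a grey line at the median of all tested genes. The medians lie at -1.49 for gastric, -1.18 for intestinal and -0.99 for liver and plasma genes, against 0.04 for all tested genes. They include genes that passed the filter through MPC only. Vsig1's point depends on the prior count because its MPC-PTX libraries held 1, 0 and 0 counts.

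Markers of other cell types were low in both lines. The summed level of fibroblast markers was 9.99 to 10.9 CPM in MPC and 8.84 to 10.6 CPM in MPC-PTX. Of 10 fibroblast markers 2 were tested: Col1a1, a collagen chain, fell from 5.78 ± 0.330 to 3.31 ± 0.144 CPM, -0.80 on the log2 scale (adjusted p = 0.00389 by edgeR), and Pdgfra, a growth factor receptor, had a log2 fold change of 0.36 (adjusted p = 0.121 by edgeR). Leukocyte markers summed to 11.4 to 12.8 CPM in MPC and 9.92 to 10.8 CPM in MPC-PTX, which did not overlap, and the 1 tested, Cd68, had a log2 fold change of -0.28 (adjusted p = 0.0978 by edgeR, and 0.0198 without MPC replicate 3). The endothelial markers summed to 8.98 to 11.7 and 8.56 to 9.62 CPM. Cldn5 of endothelium was at 0 in all 6 libraries. The part of these markers in the members' results was not tested. Col1a1, Pdgfra and Cd68 were named after their values were seen.

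The tested genes next to each member were compared as well. At Hnf4a, R3hdml starts 14.5 kb away and fell from 5.27 ± 0.390 to 1.20 ± 0.368 CPM, a log2 fold change of -2.12 (SE 0.22, adjusted p = 0.000609 by edgeR). Ttpal on the other side, 95.5 kb between starts, had a log2 fold change of 0.20 (adjusted p = 0.133 by edgeR). Foxa3 and Sympk start 0.839 kb apart, and Sympk had a log2 fold change of 0.069 (adjusted p = 0.651 by edgeR), while Irf2bp1 on the other side was at -0.17 (adjusted p = 0.35). At Cdx2, Pdx1 starts 37.3 kb away with a log2 fold change of -0.28 (adjusted p = 0.122 by edgeR), and Flt3 starts 93.2 kb away and rose from 0.750 to 5.14 CPM, a log2 fold change of 2.78 (adjusted p = 0.000216 by edgeR). Gata6's nearest tested genes Mib1 and Rbbp8 start 327 and 581 kb away and did not pass the test, at log2 fold changes of 0.43 and 0.27. Beside Gata4, Fam167a fell from 19.9 ± 1.69 to 14.2 ± 0.437 CPM, a log2 fold change of -0.48 (SE 0.098, adjusted p = 0.00974 by edgeR), a call lost without MPC-PTX replicate 2 (0.0567) or replicate 3 (0.0506). Fdft1 on its other side did not pass, at -0.21, nor did Mipol1 and Ttc6, 316 and 17.2 kb from Foxa1, at 0.38 and -0.49. The tested genes nearest to Foxa2, Xrn2 and Nxt1, start 1034 and 626 kb away and did not pass, at -0.072 and 0.0075. Zfhx4, the tested gene nearest to Hnf4g, starts 1710.5 kb away and did not pass, at 0.56. No tested gene lay within 1 Mb of Hnf4g. Within 1 Mb of Hnf4a, 20 genes were tested, 5 were lower and 3 higher, with a median of -0.0087. Within 1 Mb of Foxa3, 38 genes were tested, 5 were lower and 2 higher, and within 1 Mb of Cdx2, 13 were tested, 1 was lower and 3 were higher. Within 1 Mb of Gata6, 8 were tested, 1 was lower and 1 higher. Over all tested genes, 15.6% were lower and 14.1% higher.

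**Figure D5:**
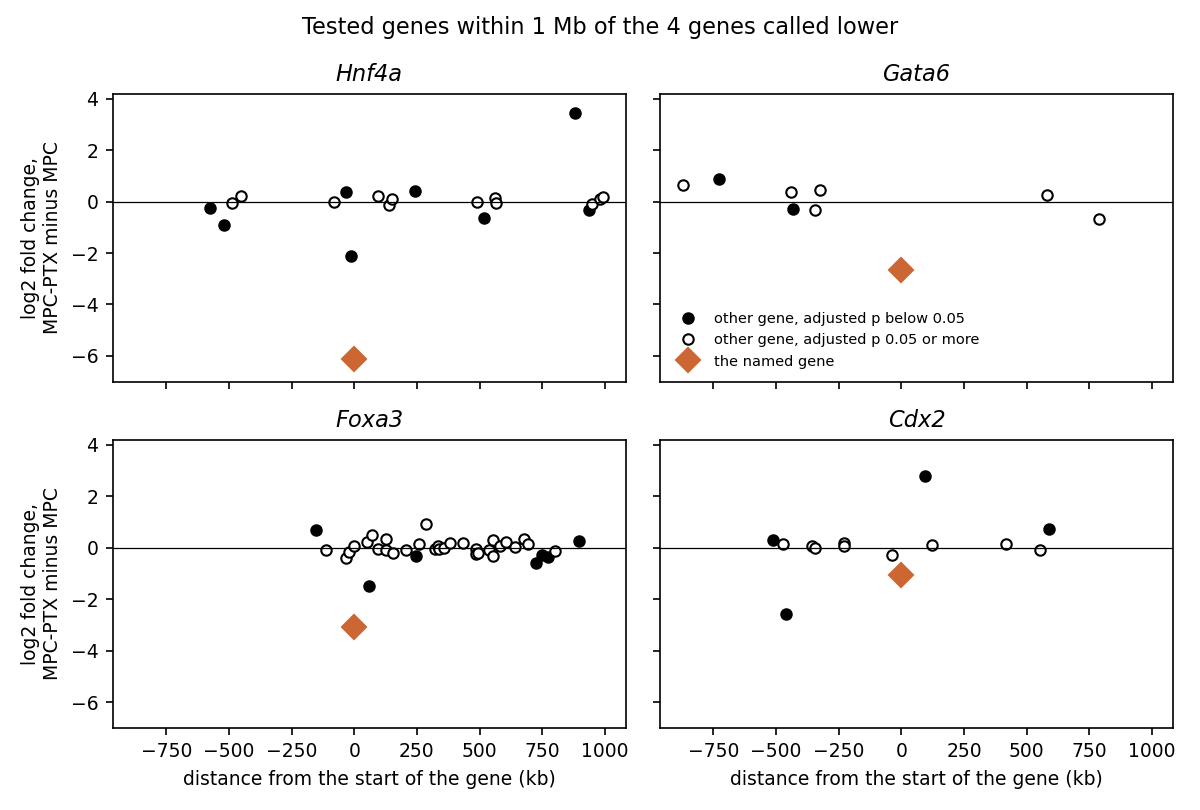
Log2 fold change of MPC-PTX against MPC for the tested genes within 1 Mb of Hnf4a, Gata6, Foxa3 and Cdx2, against the distance from the member's start in kb, with the member as a diamond and filled points for an adjusted p below 0.05. Hnf4a, Foxa3 and Gata6 each lie below every tested neighbour in their window. Cdx2, at -1.06, does not, as Rasl11a in its window lies at -2.59. Of 20 tested genes around Hnf4a, 5 were lower and 3 higher, against 15.6% and 14.1% of all tested genes.

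The genes whose level pattern over the 6 libraries was nearest to a member's were found by the root mean square difference of centred log2 CPM, over 11794 other tested genes. For Hnf4a these were Spon2 at 0.205, Gramd1b at 0.24 and Myrf at 0.27, and 11 genes lay within 0.5. For Foxa3 they were Sytl1 at 0.174, Sptssb at 0.208 and Rasgef1a at 0.224, with 70 genes within 0.5. For Gata6 they were Mlph at 0.128, the intestinal lectin Lgals4 at 0.141 and Cyp3a13 at 0.146, with 146 genes within 0.5. Spon2 fell from 17.5 ± 1.88 to 0.176 ± 0.0392 CPM, and Gramd1b had 620 counts over the MPC libraries and 2 over the MPC-PTX libraries. With 3 libraries in each of 2 lines, a gene near a member by this measure is mainly one with a difference of like size on this scale. The log2 CPM used a prior count of 2, which shrinks differences of genes near 0 counts. By edgeR, Gramd1b had a log2 fold change of -8.09, beside -6.11 for Hnf4a.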

How the data were processed

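Messenger RNA was selected with poly-T beads, and the authors trimmed reads with fastp 0.22.0 (submitters' processing notes) and aligned them with HISAT2. The counting tool, its use of strand, the genome build and the annotation are not given in the sources used here. The deposited values were raw counts per gene in 6 libraries of 21959 genes.

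Genes were kept by filterByExpr with a minimum count of 10 (11795 kept) and tested with edgeR 4.0.16 (quasi-likelihood, robust, TMM) in R 4.3.3, with Benjamini-Hochberg adjustment and a threshold of 0.05. SEs were derived from the F statistic. Gene positions and exon lengths came from GENCODE M21 (GRCm38), matched by gene ID, which may differ from the authors' annotation. GC content and length were known for 11776 tested genes. The code was tested on simulated data. Replicates differed beyond sampling noise in each line, so none was merged. The chi-square per gene was 1.83 to 3.33 between MPC-PTX libraries. It was 60 and 31.9 for MPC replicate 3 against replicates 1 and 2, and 14.7 between those. DESeq2 1.42.0, other scalings and filters, leaving out each library, and a replicate block were alternatives. Members and lists were chosen with earlier results of these data known. Named genes were the 8 members, tested relatives, up to 6 genes per list with adjusted p under 0.05 and absolute log2 fold change above 1, 3 genes nearest in pattern to each of the 3 members with the largest called change, and adjacent or overlapping genes; a few of these are not reported here. Counting intervals and floors cover counting error only.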

Additional observations from a re-analysis of the deposited data

How the results depend on the processing

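Hnf4a, Gata6 and Cdx2 stayed lower and called under all 14 alternatives, with log2 fold changes of -6.28 to -6.01, -2.79 to -2.48 and -1.13 to -0.93. Foxa3 stayed called under the 13 alternatives that tested it (-3.57 to -2.86), and a minimum of 10 counts in every library removed it. The count of lower members was 4, except 3 under that filter and 5 without MPC replicate 1, without MPC replicate 3 or with DESeq2, where Foxa1 was added. Hnf4g was called in 0 of 13. Gata4 was called in 0 of 14 and changed sign, to 0.017 with library size only, 0.023 with GC and length correction, 0.024 with the replicate block and that correction, and -0.15 to 0.034 over leave-one-out fits.

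With the replicate block, the members called lower were 4, and 1717 genes were lower and 1787 higher. The numbers were not treated as pairing the samples: same-numbered libraries correlated at 0.151, -0.0227 and 0.173, and not every library correlated best with its own number. Over all genes, 1077 to 3227 were lower and 803 to 3020 higher when 1 library was left out, with both counts past 1.5 times the full value without MPC replicate 3 and under it by as much without MPC replicate 2 or any 1 MPC-PTX library, and 2508 were higher with the block and GC and length correction. Other gut regulators had 7 lower with GC and length correction, and 3 to 8 lower and 2 to 5 higher over leave-one-out fits. Gastric genes had 0 to 1 higher over those fits and 2 higher with DESeq2. With 10 counts in every library, 7 gastric, 3 intestinal and 3 liver and plasma genes were lower, and 4 squamous genes were lower and 1 higher. The cause of these changes was not tested. Depth limits Foxa2, Hnf4g and Foxa3 in MPC-PTX, where Foxa3 rested on 4 to 15 counts.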

Other observations

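Genes of stratified squamous epithelium, which lines the mouse forestomach, moved in both directions. Of 22 listed, 14 were tested, 7 were lower and 3 higher in MPC-PTX by the quasi-likelihood test of edgeR, adjusted by Benjamini-Hochberg, with a median log2 fold change of -0.33. The shares over all tested genes were 15.6% lower and 14.1% higher. Krt14, a basal keratin, had 15, 4 and 9 counts in MPC and 690, 641 and 523 in MPC-PTX, a log2 fold change of 5.95 (SE 0.27, adjusted p = 2.22e-05 by edgeR). Trp63, the basal cell regulator, had a log2 fold change of 1.81 and Krt6a of 1.67. Krt15, another basal keratin, fell from 4.28 ± 1.54 to 0.361 ± 0.158 CPM, a log2 fold change of -3.58 (SE 0.44, adjusted p = 0.00115 by edgeR), and Krt5 had 0 or 1 count in every library. Of genes of the suprabasal layers, Ivl fell from 8.51 to 0.227 CPM, a log2 fold change of -5.21, and Sprr1a fell from 371 to 31.9 CPM, a log2 fold change of -3.54. Krt4 and Sfn also fell, with log2 fold changes of -1.99 and -1.11, as did Sprr3 at -2.68 (adjusted p = 0.016 by edgeR), a call lost without any 1 MPC-PTX library (0.0619, 0.0667 and 0.0564). Trp63, Krt6a, Krt5 and Sfn were named after their values were seen.

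Among general epithelial markers, Cldn4 fell from 671 ± 119 to 306 ± 10.8 CPM and Krt8 from 1934 ± 177 to 952 ± 18.9 CPM (SD, n = 3 each), log2 fold changes of -1.13 and -1.02.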
